A study of Mus musculus with 8 samples.

Results

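The urea cycle of mouse liver was read here through 7 genes on 8 microarrays: the 5 enzymes Cps1, Otc, Ass1, Asl and Arg1, the ornithine carrier Slc25a15 and the ammonia-releasing enzyme Glud1. They were chosen by name, as every probe set of the array whose gene symbol is one of these 7. There were 9 such probe sets among 12422 in all, at least 1 for each gene, and 8 of the 9 passed the filter that kept the 6211 brighter probe sets. The brightest probe set of each gene carries the values below, and Asl and Glud1 each had a second one as a check.

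The urea cycle turns ammonia, which is toxic, into urea for excretion, and a complete cycle runs in periportal hepatocytes of the liver. Carbamoyl phosphate and citrulline are made in the mitochondrial matrix, and the steps from citrulline to urea run in the cytosol, so ornithine and citrulline must cross the inner mitochondrial membrane. The load on the cycle follows protein intake and the breakdown of amino acids, and glucagon and glucocorticoids are known to raise the transcripts of its enzymes.

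The arrays were Affymetrix mouse U74Av2, which read each transcript with a set of short probes near its 3′ end. Each of the 8 arrays held liver RNA of a different female mouse of the Ames stock, which carries a recessive pituitary dwarfism allele (df). All 8 animals were phenotypically normal (+/+ or +/df, not told apart), received 30% less of a standard pelleted diet than normal females of these genotypes ate when freely fed, and were 24 to 26 months old when killed. They form 1 group (n = 8, replicates numbered as in the labels). No diet or genotype contrast can be drawn, and the question open to the data is how far each transcript differed between animals. Dwarf and freely fed mice were not analysed here.

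Signals are in arbitrary units after quantile normalization, which gives every array the same set of values; deposited values are named as such. How bright a probe set is depends on its probes, so signals of different genes are not compared as amounts. All 6 measured hepatocyte markers of 8 listed were above the filter, among them Alb at 31094 ± 749 (SD, n = 8) and Apoa1 at 27456 ± 1138. Replicates 5 and 6 stood apart. The log2 ratio of 3′ to 5′ signal of the Gapdh control was 4.35 on replicate 5, 0.33 on replicate 6 and -0.24 to -0.17 on the other 6, and that of pyruvate carboxylase was 4.33, 4.30 and 1.42 to 2.76. The median correlation with the other arrays was 0.881 for replicate 5, 0.943 for replicate 6 and 0.962 to 0.974 for the rest. The ranges, variance ratios and correlations that rest on these arrays are therefore also given without them. In whole liver, fewer cells of a type and less RNA per cell cannot be told apart.

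Cps1, Arg1, Otc, Slc25a15 and Glud1 gave signals that differed less than 2-fold between the lowest and the highest animal, and Ass1 and Asl differed more. On replicates 5 and 6 the genes went different ways: on replicate 5, Otc and Glud1 were high while Slc25a15 and Ass1 were low, and on replicate 6, Asl and Slc25a15 were high while Otc and Arg1 were low. Among the other 6 animals, Otc, Slc25a15, Arg1 and Cps1 stayed within a 1.17-fold range. No gene passed limma's test for more spread than transcripts of like level after adjustment, as with 0.0% of all probe sets above the filter. A range above 2-fold was found for 2 of the 7 genes, against 38.6% of all probe sets above the filter. Over the 6 arrays other than replicates 5 and 6 it was found for 0 of the 7, against 11.2% of all.

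**Figure D1:**
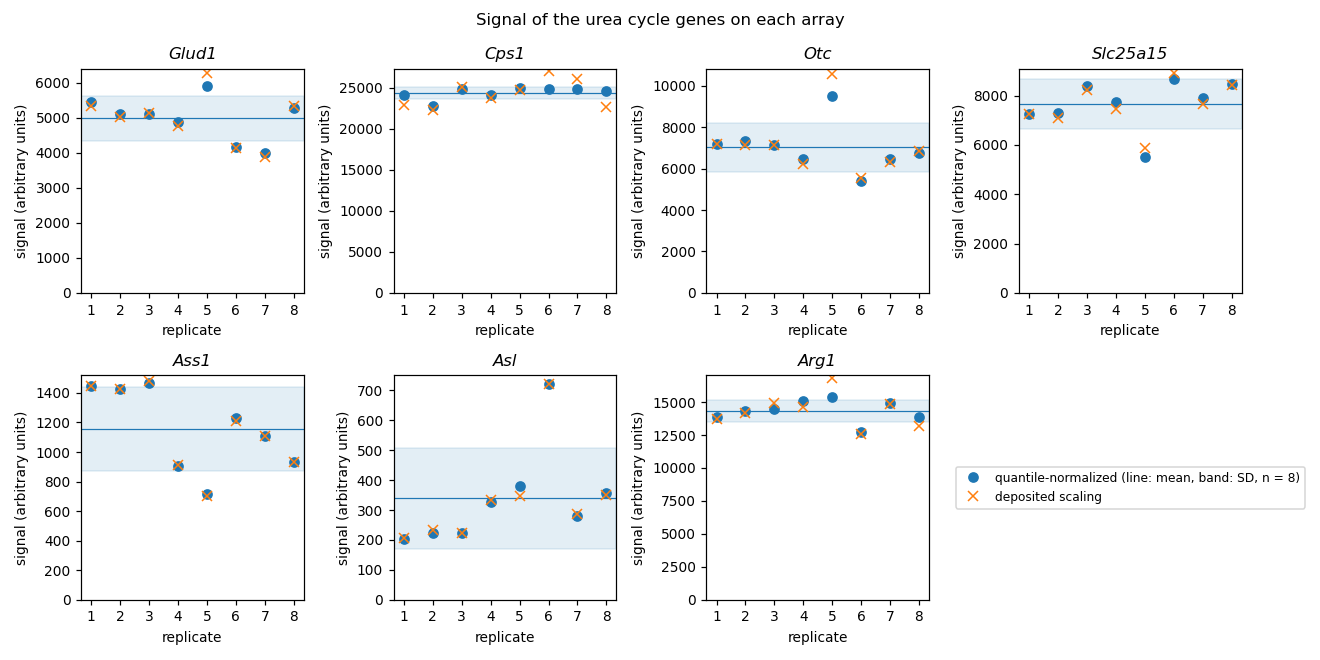
Signal of the brightest probe set of each of the 7 genes (y axis, arbitrary units, from 0) on each of the 8 arrays (x axis, replicate), as quantile-normalized values (circles, with the mean as a line and the SD as a band) and deposited values (crosses). Otc was highest on replicate 5 (9531) and lowest on replicate 6 (5384), and Asl was highest on replicate 6 (722).

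Entry of nitrogen was read from Glud1 and Cps1. Glud1, glutamate dehydrogenase of the mitochondrial matrix, frees ammonia from glutamate. Its signal was 4990 ± 639, with a lowest value of 4002 on replicate 7, a median of 5103 and a highest value of 5916 on replicate 5. Replicate 6 (4159) lay close to replicate 7, within the range of the other animals, and replicate 5 lay above the other 6, which ran up to 5456. The range was 1.48-fold over 8 arrays and 1.36-fold without replicates 5 and 6. The second Glud1 probe set was dim, at 35.1 to 106, below the filter. It did not follow the first (r = -0.348, exact permutation p = 0.394; rho = -0.405, exact permutation p = 0.327; n = 8; r = 0.0281 without replicates 6 and 7, the 2 farthest from the median).

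Cps1, carbamoyl phosphate synthetase, catalyses the first committed step from ammonia and is among the most abundant matrix proteins of the hepatocyte. Its probe set ranked between 11 and 19 from the top on every array. There quantile normalization leaves little room for differences, and 3 arrays that shared rank 12 received the same value of 24851. On this scale the signal was 24391 ± 759 with a 1.10-fold range, lowest on replicate 2 (22747) and highest on replicate 5 (25038). The deposited values were 22946.5, 22268, 25157, 23702, 24779.5, 27109, 26129 and 22677 on replicates 1 to 8, a mean of 24346 ± 1738 and a 1.22-fold range. On the deposited scale the highest array was replicate 6 rather than 5, so both the order of the animals and the size of the spread depend on the scaling for Cps1. The SD of log2 signal was 0.046 on the quantile scale and 0.102 on the deposited one, and without replicate 2 the former was 0.022.

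Otc, ornithine transcarbamylase, joins carbamoyl phosphate to ornithine to give citrulline in the matrix. The signals on replicates 1 to 8 were 7218, 7322, 7134, 6471, 9531, 5384, 6462 and 6758, a mean of 7035 ± 1183. Replicate 5 was 0.52 above the mean of the others on the log2 scale and replicate 6 was 0.42 below it. The other 6 animals lay between 6462 and 7322, a 1.13-fold range with a coefficient of variation of 5.54%, against 16.8% over 8 arrays. The median over all probe sets above the filter was 19.5% over 8 arrays, and 13.2% when the 6 arrays were normalized by themselves.

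Slc25a15, the carrier of the inner mitochondrial membrane that brings ornithine in and citrulline out, gave 7249, 7281, 8379, 7742, 5491, 8675, 7911 and 8464 on replicates 1 to 8, a mean of 7649 ± 1019.6. It was lowest on replicate 5 and highest on replicate 6, the reverse of Otc. Without these arrays the range was 1.17-fold, from 7249 to 8464. The SD of log2 signal was 0.21 over 8 arrays and 0.10 without replicate 5 alone. The extremes of 15.8% of all probe sets above the filter fell on replicates 5 and 6 in either order.

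The cytosolic steps begin with Ass1, argininosuccinate synthetase, which joins citrulline to aspartate and so brings in the second nitrogen of urea. Its signals were 1444, 1429, 1467, 907, 719, 1231, 1108 and 933 on replicates 1 to 8, a mean of 1155 ± 284 and a 2.04-fold range. Replicates 1, 2 and 3 lay within 1429 to 1467, above all others, and replicate 5 was lowest. Unlike Otc, Ass1 kept a wide spread without replicates 5 and 6, from 907 to 1467 (1.62-fold, coefficient of variation 21.7%). On the deposited scale the range over 8 arrays was 2.10-fold.

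Asl, argininosuccinate lyase, splits argininosuccinate into arginine and fumarate. It was the dimmest of the 7 probe sets, at 202, 223, 223, 325, 379.9, 722, 281 and 358 on replicates 1 to 8, a mean of 339 ± 168 and a 3.57-fold range. Replicate 6 was 1.38 above the mean of the others on the log2 scale, and the other 7 lay between 202 and 379.9. The second Asl probe set read 375 on replicate 6 and was highest on replicate 7, at 400.2, and lowest on replicate 1, at 201. It had a 1.99-fold range, so the 3.57-fold range of Asl rests on 1 probe set. Both probe sets were lowest on replicate 1, and their correlation was r = 0.680 (exact permutation p = 0.0510) and rho = 0.714 (exact permutation p = 0.0576) over 8 arrays. It was 0.405 without replicates 1 and 6, the 2 farthest from the median, and 0.53 without replicates 5 and 6.

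**Figure D2:**
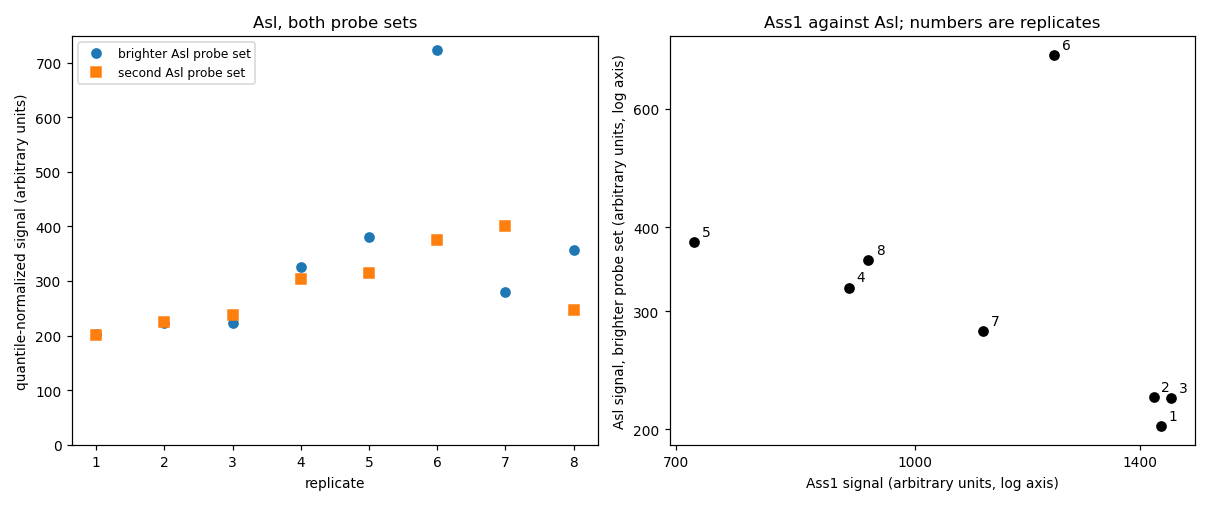
Left, quantile-normalized signal (y axis, arbitrary units, from 0) of the brighter (circles) and the second (squares) Asl probe set on each array (x axis); they differ most on replicate 6, at 722 and 375. Right, Ass1 (x axis) against the brighter Asl probe set (y axis), both on log axes in arbitrary units, 1 point per array numbered by replicate; apart from replicate 6, Asl was lower where Ass1 was higher.

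Arg1, liver arginase, releases urea from arginine and returns ornithine to the cycle. Its signal was 14336 ± 842, with a lowest value of 12749 on replicate 6, a median of 14427 and a highest value of 15374 on replicate 5. The other 6 lay between 13834 and 15097, a 1.09-fold range. The deposited range over 8 arrays was 1.34-fold, with the same lowest and highest arrays. Macrophages can express arginase too. The summed signal of 10 macrophage markers, 8 of them above the filter, was 5518 on replicate 5 and 6302 on replicate 6. On the others it was 6522 to 7993, so it was low both where Arg1 was highest and where Arg1 was lowest. The markers differed in direction on replicate 5. Of the 8, 4 were lowest there, among them C1qa at 80.0 against up to 1557. Another 2 were highest there, Csf1r at 933 and Lyz2 at 673. The part of macrophages in the Arg1 signal was not tested. Kidney tubule and intestine also express enzymes of the cycle. Of 5 kidney markers 0 were above the filter, with Umod at the floor on all arrays. Of 3 measured intestinal markers 1 was, Fabp2 at 1062 ± 374, from 366 on replicate 6 to 1563 on replicate 2. Vil1 and Lct were below the filter.

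Of the 7 genes, 5 lay above the other 6 animals on replicate 5 (Glud1, Cps1, Otc, Asl and Arg1) and 2 lay below them (Slc25a15 and Ass1), so that all 7 were outside that range. Over all probe sets above the filter, 36.5% lay above and 30.5% below on this array. On replicate 6, Slc25a15 and Asl lay above (25.7% of all) and Otc and Arg1 below (22.7% of all). With the deposited scaling Cps1 and Asl on replicate 5 fell inside the range (33.2% of all were above and 35.4% below), and Cps1 on replicate 6 rose above it (24.6% above and 23.8% below). Of the 7 genes, 4 had their highest value on replicate 5 (33.2% of all) and 2 their lowest (28.7%), which makes 6 with an extreme there (61.9% of all). On replicate 6 the highest value fell for 2 (18.4%) and the lowest for 2 (16.3%), 4 in all (34.7%). Whether the raised 3′ to 5′ ratios of these arrays had a part in these differences was not tested.

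The spread of each gene was then set against transcripts of like level, as a log2 variance ratio that is 0 for equal variance. The 7 ratios had a median of 0.30, against 0.12 over all 6211 probe sets, and 4 of the 7 were above 0, where 53.4% of all were. Asl had the highest at 2.07 (limma upper-tail F test, adjusted p = 0.959) and Ass1 followed at 1.20 (adjusted p = 0.988). The place of Asl rests on its brighter probe set, as the second had a ratio of 0.53, below that of Ass1. The ratios of Otc, Slc25a15 and Glud1 were 0.50, 0.30 and -0.31. None of the 7 passed at an adjusted p of 0.05, as with 0.0% of all probe sets, and at an unadjusted p of 0.05 none did either, against 5.67% of all. Without replicates 5 and 6 the median of the 7 was -0.65, against 0.0084 over all probe sets above the filter. The ratio of Ass1 rose to 2.01 there (limma adjusted p = 0.920), above that of Asl at 0.96 (limma adjusted p = 0.994). Otc, Slc25a15 and Glud1 then had ratios of -1.22, -0.65 and 0.57. By limma 0 of 7 passed there, adjusted (0.0% of all) or at an unadjusted p of 0.05 (6.15% of all on the more variable side and 5.12% on the less variable side). With the deposited values 0 of 7 passed either (unadjusted 5.81% and 4.89% of all), nor with the deposited values of the 6 arrays (6.3% and 5.04%).

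Cps1 and Arg1 lay at the other end. The ratio of Cps1 was -3.20, at the 1.06 percentile of all (limma lower-tail F test, adjusted p = 0.580 over all probe sets). That of Arg1 was -1.79 (limma adjusted p = 0.987), and -1.74 without replicates 5 and 6. At an unadjusted p of 0.05, 1 of the 7 was less variable than its level, against 5.3% of all, and by the adjusted p 0 of 7 and 0.0% of all were. The value for Cps1 depends on the scaling: with the deposited values the ratio was -1.09 (limma adjusted p = 0.986), and with the deposited values of the 6 arrays it was -0.13. On the quantile scale of the 6 arrays it was -1.84. For Arg1 the ratio with the deposited values was -0.85 (limma adjusted p = 0.986), and -1.21 with those of the 6 arrays.

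**Figure D3:**
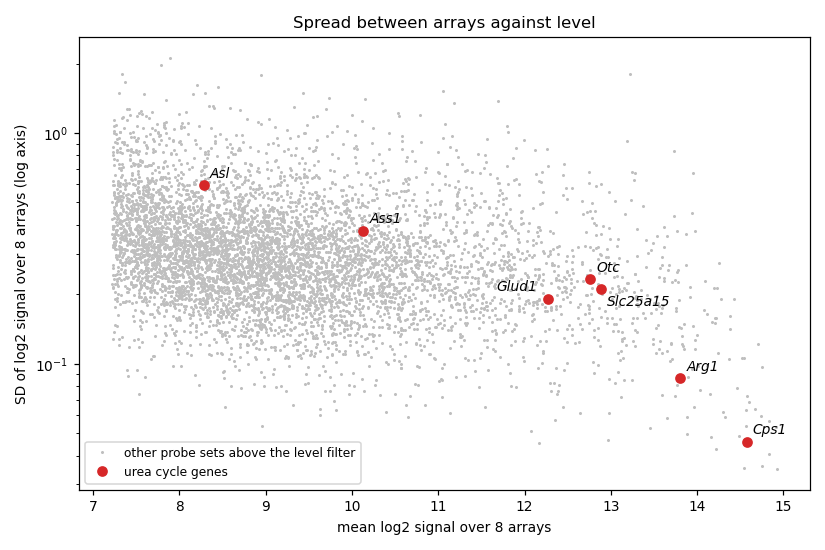
SD of log2 signal over 8 arrays (y axis, log axis) against mean log2 signal (x axis) for the 6211 probe sets above the level filter (grey) and the 7 urea cycle genes (red). The brighter Asl probe set lies among the more variable transcripts of its level and Cps1 among the least variable of the brightest. The second Asl probe set, not in red, had a lower SD of 0.36.

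Next, the 7 genes were compared in pairs across the animals, to ask whether the cycle varied as a unit. It did not show a common direction: of 21 pairs, 7 had a positive Pearson r and 14 a negative one, with a median of -0.257. By the exact permutation test over the arrays, 0 pairs passed after Benjamini-Hochberg adjustment over the 21, and 2 passed unadjusted, by r and by rho alike. These were Otc with Slc25a15 (r = -0.880, p = 0.00595, adjusted p = 0.125; rho = -0.786, p = 0.0279, adjusted p = 0.293) and Glud1 with Otc (r = 0.813, p = 0.0119, adjusted p = 0.125; rho = 0.810, p = 0.0218, adjusted p = 0.293).

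The relation of Otc and Slc25a15 rests on replicates 5 and 6, the 2 arrays farthest from the median of Otc: without them r was -0.384 (exact permutation p = 0.365), and 0.0105 with the deposited values. Without replicate 3 alone this pair passed (r = -0.939, exact permutation, adjusted p = 0.0458). For Glud1 and Otc, r was 0.881 without replicates 6 and 7, the 2 farthest from the median of Glud1, and 0.667 without 5 and 6. Of the 21 correlations, 8 changed sign when replicates 5 and 6 were left out. With the deposited values of all 8 arrays 0 pairs passed after adjustment, but more passed unadjusted. Added were Slc25a15 with Arg1 (r = -0.811, exact permutation p = 0.0182, adjusted p = 0.127) and Otc with Arg1 (r = 0.785, exact permutation p = 0.0299, adjusted p = 0.157). Without replicates 5 and 6 these were -0.124 and -0.380 on that scale.

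**Figure D4:**
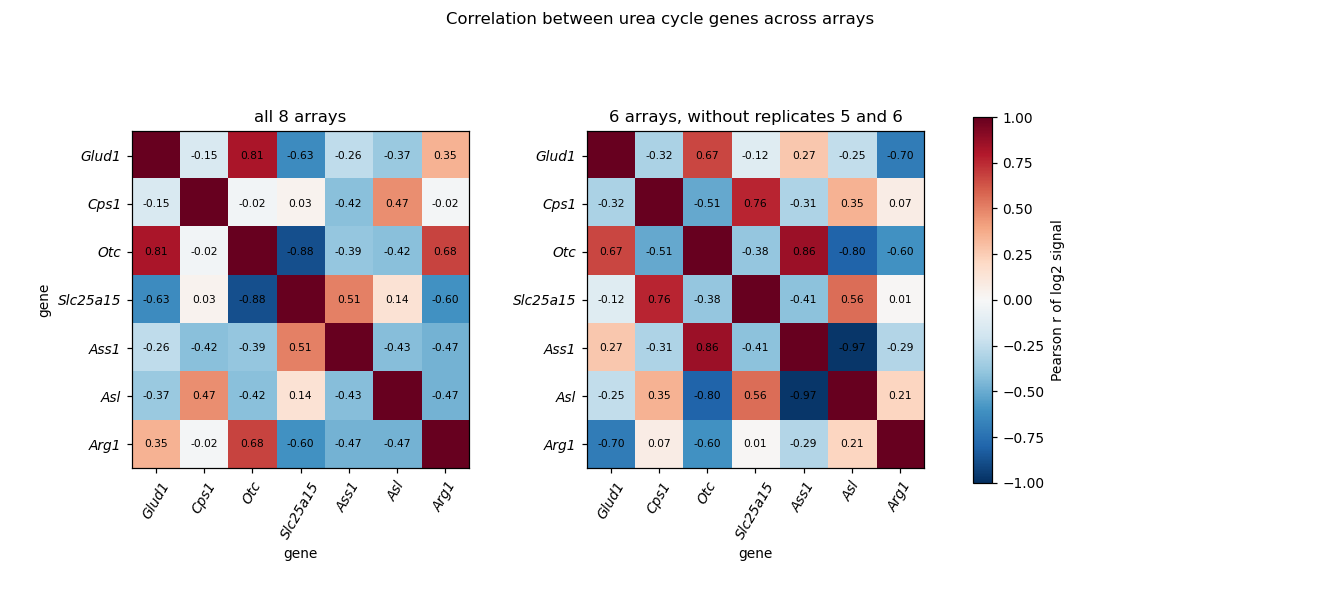
Pearson r of log2 signal between each pair of the 7 genes (rows and columns, colour and printed value from -1 to 1) over all 8 arrays (left) and over the 6 arrays other than replicates 5 and 6 (right). The negative value of Otc with Slc25a15 moves from -0.88 to -0.38, and that of Ass1 with Asl from -0.43 to -0.97.

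Ass1 and Asl, consecutive steps of the cytosolic part, were singled out after their values were seen. Over 8 arrays r was -0.427 (exact permutation p = 0.303, adjusted p = 0.543; rho = -0.714, p = 0.0576, adjusted p = 0.403), and it was -0.463 without replicates 4 and 5, the 2 farthest from the median of Ass1. Without replicate 6, r was -0.969 (exact permutation p = 0.00298, adjusted p = 0.0625), and without both 5 and 6 it was -0.972 (exact permutation p = 0.0125, adjusted p = 0.2625). With the second Asl probe set in place of the first, r was -0.446 over 8 arrays (exact permutation p = 0.257) and -0.556 over the 6 (exact permutation p = 0.254), so the close relation was seen with 1 of 2 probe sets.

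Promoter windows of Glud1, Otc, Ass1 and Slc25a15 were read from a RefSeq table of GRCm38.p6, which matched 4 of the 7 genes; those of Cps1, Arg1 and Asl were not analysed here. Those of Otc and Glud1 are shown because the signals of these genes had the highest positive correlation of the 21 pairs, while the windows differ strongly in base composition. Each runs from 250 bases before to 50 bases after the annotated start, on the plus strand, at chrX:10252055-10252354 for Otc and chr14:34310477-34310776 for Glud1, and capitals mark motif matches on either strand.
Otc: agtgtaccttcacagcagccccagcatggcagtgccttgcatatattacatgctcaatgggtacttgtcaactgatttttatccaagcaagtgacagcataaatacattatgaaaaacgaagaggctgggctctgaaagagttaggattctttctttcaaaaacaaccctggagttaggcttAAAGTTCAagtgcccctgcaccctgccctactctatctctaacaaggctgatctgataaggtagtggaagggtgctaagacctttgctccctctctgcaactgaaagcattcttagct
Glud1: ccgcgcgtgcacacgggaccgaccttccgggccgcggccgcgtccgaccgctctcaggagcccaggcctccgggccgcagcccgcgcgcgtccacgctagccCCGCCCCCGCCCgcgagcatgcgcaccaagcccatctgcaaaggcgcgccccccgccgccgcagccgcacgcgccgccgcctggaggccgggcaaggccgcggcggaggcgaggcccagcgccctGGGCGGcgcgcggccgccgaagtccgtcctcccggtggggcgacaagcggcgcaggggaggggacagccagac

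The Otc window had a GC content of 44.3% and 1 CpG, and the Glud1 window 81% and 51 CpG, where the median of 32851 such windows was 52.7% and 7 CpG. The search covered the promoter element TATAAA, the element CCAAT, the GC box, spelled GGGCGG, and the E-box, spelled CACGTG. It also covered TTGCNNAA as the C/EBP type, the core of the cyclic AMP response element, TGACG, and AAAGTNCA as the HNF4 type, of which the last was added with the sequences in view. Both strands were read. Of all windows, 13.6% held TATAAA, 37.4% CCAAT, 7.15% the E-box, 10.8% the C/EBP type and 20.8% the response element core. Otc held 1 match to AAAGTNCA, found in 4.12% of all windows, and none of the other motifs. Glud1 held 3 matches to GGGCGG, found in 35.7% of windows, of which 2 adjoin on the minus strand. The Ass1 window had 74% GC with 1 GGGCGG and 1 CACGTG match, and the windows of Slc25a15, which has 2 annotated starts, had 60.7% and 79% GC with 3 and 5 GGGCGG matches and, in the latter, 1 CACGTG match.

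Regulators of these genes and other targets of glucagon and glucocorticoids were compared with the cycle in the same way. Of the 10 genes listed, 8 were above the filter, giving 56 pairs. By the exact permutation test 0 passed after adjustment over the 56 (lowest adjusted p = 0.305), and 6 passed unadjusted by r and 1 by rho. Of these 8 partners, 6 were lowest on replicate 5, where 28.7% of all probe sets above the filter were. They were the transcription factors Hnf4a, Cebpa and Cebpb, and Pck1, G6pc and Tat. Replicate 5 was the array with the highest Gapdh 3′ to 5′ ratio. There Hnf4a read 187 against 741 to 2029 elsewhere and Cebpa 6571 against 11160.1 to 13313. Ass1, lowest on the same array, had r = 0.734 with Cebpa (exact permutation p = 0.0249, adjusted p = 0.305; rho = 0.643), 0.702 without replicates 4 and 5, the farthest from the median of Ass1, and 0.399 without 5 and 6. With Hnf4a its r was 0.676 (exact permutation p = 0.0466, adjusted p = 0.305; rho = 0.524), 0.302 without 4 and 5, and 0.443 without 5 and 6.

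On replicate 6, 5 of the 8 partners were highest (18.4% of all probe sets above the filter): Cebpb, Pck1, G6pc, Tat and Igfbp1. Tyrosine aminotransferase (Tat) read 25038 there against 12179 to 18471 elsewhere, and Igfbp1, which binds insulin-like growth factors in blood, 3297 against 363 to 773. The cycle genes did not share a direction on that animal, where Asl and Slc25a15 were highest and Otc and Arg1 lowest. Otc had r = -0.828 with Cebpb (exact permutation p = 0.0246, adjusted p = 0.305; rho = -0.619) and -0.751 with Pck1 (exact permutation p = 0.0427, adjusted p = 0.305; rho = -0.524). Without replicates 5 and 6, the farthest from the median of Otc, these were 0.0350 and 0.250. Glud1 had r = -0.730 with Cebpb (exact permutation p = 0.0373, adjusted p = 0.305; rho = -0.595), -0.673 without replicates 6 and 7, the farthest from its median, and -0.314 without 5 and 6. The single call by rho was Glud1 with G6pc (rho = -0.738, exact permutation p = 0.0458, adjusted p = 0.648), where r was -0.546 and, without 5 and 6, -0.00531. Glutamine synthetase (Glul), which takes up ammonia in the pericentral hepatocytes that lie downstream of the cycle, was 1006 ± 230.2, from 762 on replicate 2 to 1373 on replicate 7. Its r with Glud1 was -0.762 (exact permutation p = 0.0286, adjusted p = 0.305; rho = -0.548), -0.852 without replicates 5 and 6, and -0.0550 without 6 and 7, the farthest from the median of Glud1, so it rests on those animals. With Otc its r was -0.509 over 8 arrays (exact permutation p = 0.213, adjusted p = 0.374; rho = -0.714) and -0.902 over the 6 (exact permutation p = 0.00417, adjusted p = 0.233), a value singled out after it was seen.

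Other genes of nitrogen handling were taken from lists. Of 31 genes that supply ammonia, ornithine or aspartate, 19 were measured and 15 kept. By limma's test 0 were more variable than their level, adjusted or at an unadjusted p of 0.05 (0.0% and 5.67% of all), and the median log2 variance ratio was 0.58. Without replicates 5 and 6 it was 0.54, and 1 gene, Oat, was more variable at an unadjusted p of 0.05 (6.15% of all). The brightest were the amino acid transporter Slc38a4 (11507 ± 2051) and ornithine aminotransferase (Oat, 7542 ± 1698, from 5371 on replicate 1 to 10271 on replicate 8). Slc38a4 and Car5a, the mitochondrial carbonic anhydrase that supplies bicarbonate to Cps1, had the highest ratios (1.72 and 1.62). Both were lowest on replicate 5, at 6781 and 1667, where Slc25a15 and Ass1 were also lowest. Of the 15 kept genes 6 were lowest on that array, against 28.7% of all probe sets above the filter. Without replicates 5 and 6 the ratios of Slc38a4 and Car5a were -0.04 and 0.90.

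Of 28 enzymes of amino acid breakdown, 15 were measured and 14 kept; by limma's test 0 were more variable than their level, adjusted or at an unadjusted p of 0.05 (0.0% and 5.67% of all). The median ratio was 0.49, and 0.97 without replicates 5 and 6, where Tat alone passed unadjusted (6.15% of all). The brightest were tryptophan dioxygenase (Tdo2, 21420 ± 2168) and Tat (15446 ± 4450.2). The highest ratios were those of Bckdha, a subunit of the branched-chain ketoacid dehydrogenase, at 2.44 (792 on replicate 5 and up to 2639.6 elsewhere), and Tat at 2.40. Without replicates 5 and 6 these were -0.66 and 2.52. Bckdhb, the partner of Bckdha in the same enzyme component, had a ratio of -3.01 and a 1.17-fold range (3831 ± 212), and was 1 of the 14 less variable than its level at an unadjusted p of 0.05 (5.3% of all).

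Among 13 kept regulators and hormone response genes of 20 listed, 10 differed more than 2-fold between animals, where 38.6% of all probe sets did, and the median ratio was 1.84. By limma's test 0 passed adjusted and 5 passed unadjusted (5.67% of all): Ppara (ratio 4.42), Hnf4a (4.36), Igfbp1 (3.94), Ghr (2.93) and G6pc (2.79). Many of these differences rest on replicates 5 and 6. Over the other 6 arrays 4 of the 13 differed more than 2-fold (11.2% of all): Ppara (3.63-fold), Foxa3 (2.88-fold), Igfbp1 (2.13-fold) and G6pc (2.07-fold). The range of Hnf4a went from 10.9-fold to 1.54-fold and that of Ghr from 4.42-fold to 1.42-fold. In a refit without these arrays 13 genes of the list were again kept, but Crem fell below the filter and another listed gene took its place. The median ratio of that set was 0.98, and by limma 0 passed adjusted and the same 4 genes passed unadjusted (6.15% of all). Ppara, a nuclear receptor of fatty acid catabolism, ran from 238 on replicate 6 to 1942 on replicate 7, with 270.2 on replicate 5. Both arrays with raised 3′ to 5′ ratios were thus at its low end, and the part of RNA quality was not tested.

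**Figure D5:**
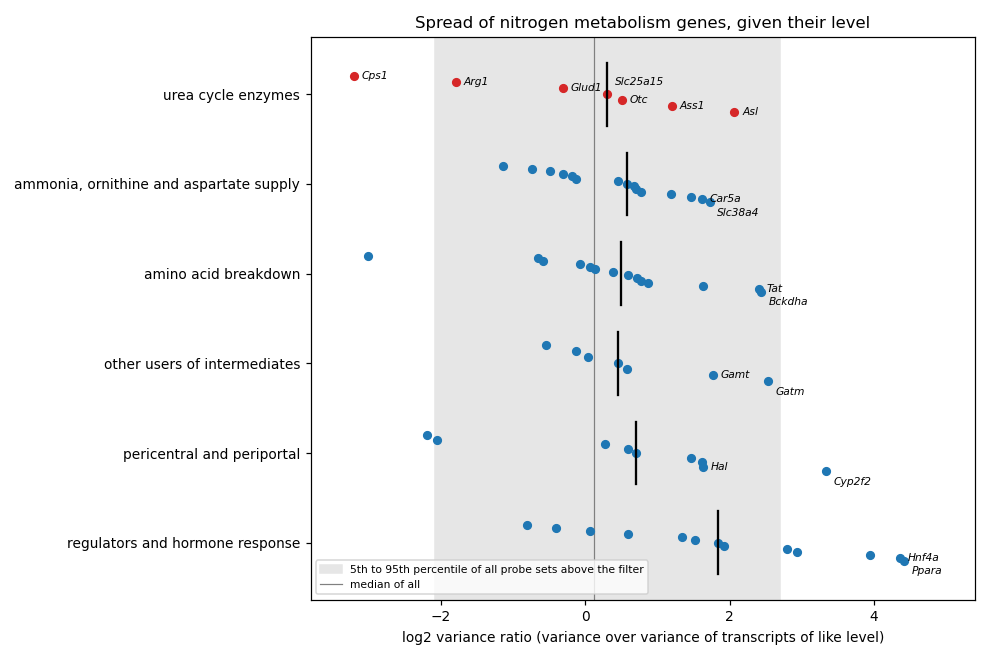
Log2 variance ratio (x axis) of each gene above the filter in the urea cycle (red) and 5 lists of related genes (blue), 1 point per gene with the list's median as a black bar; the grey band spans the 5th to 95th percentile of all 6211 probe sets and the grey line their median of 0.12. The medians are 0.30 for the urea cycle and 1.84 for the regulators and hormone response genes. Refitted without replicates 5 and 6 (not drawn) they are -0.65 and 0.98, the latter with Crem replaced by another gene of its list.

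The genes whose pattern over the 8 arrays was most like each cycle gene were taken as the 3 with the highest r among 4809 others, as a description. For Otc they were Rnf11 (0.989), Phldb2 (0.988) and Rcor1 (0.985), all highest on replicate 5 and lowest on replicate 6, as were those of Glud1 (Slc22a23 at 0.978, Mdm4 at 0.972 and Zfp467 at 0.969). For Asl the first was Hgd (0.983, and 0.931 without replicates 5 and 6), homogentisate dioxygenase of tyrosine breakdown, at 6895 on replicate 1 to 14568 on replicate 6. Dtx1 (0.955) and Banf1 (0.947) followed. For Slc25a15 they were Zfp524 (0.983), Rraga (0.966) and Babam1 (0.966), all lowest on replicate 5 and highest on 6. For Ass1 they were Cdc42se2 (0.945), Cd9 (0.935) and Zfp385a (0.923), for Cps1 Naa38 (0.927), Rit1 (0.916) and Itln1 (0.912), and for Arg1 Fcgr2b (0.976), Npepps (0.964) and Samhd1 (0.926). When replicates 5 and 6 were left out of the search, 0 of these 21 genes were chosen again. The r of the 21 with their cycle gene over the 6 arrays was nonetheless high. It ran from 0.834 (Samhd1 with Arg1) to 0.978 (Slc22a23 with Glud1), so other genes reached higher values there.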

How the data were processed

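The authors' deposited table gives, for every array, 1 linear intensity of each probe set, from Affymetrix U74Av2 arrays scanned on a Hewlett-Packard GeneArray scanner, per the labels. Software, background handling and scaling: not given in the sources used here. Array medians ran from 132 to 166, and no arrays were identical. After 66 controls were left out of 12488 probe sets, values were quantile-normalized, floored at the 20th percentile (24.6) and taken to log2, and probe sets above the median level were kept (6211, 4810 genes). Platform symbols (10833 probe sets with 1, 396 with several, 1193 with none) were set against RefSeq GRCm38.p6.

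Variances were tested with limma 3.58.1 in R 4.3.3 (trend, robust prior, 4.03 prior degrees of freedom), upper and lower tail, with Benjamini-Hochberg adjustment over all kept probe sets; the test was checked on simulated data. Pairs were tested by exact 2-sided permutation over all pairings, 40320 for 8 arrays and fewer where arrays were left out (Python 3.11.15). Named were the 7 genes, the partner genes, the 2 brightest and 2 most variable of each list, unadjusted calls of single genes and pairs, and the 3 most alike genes. Members and lists were chosen with earlier results of these data known. The number of arrays limits precision, and the p-values rest on the spread between them. With a single array per animal, differences between animals and between arrays cannot be told apart.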

Additional observations from a re-analysis of the deposited data

Results flagged for a closer look

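Among the 7 urea cycle genes and the 8 partner genes above the filter, 5 had 1 array set apart from the others on the log2 scale, with a gap to the nearest array, as a share of the range, above Dixon's 95% critical value. Chance flags about 1 in 20 groups, and 20.8% of all 6211 probe sets above the filter were set apart in this way. Slc25a15 had a gap of 0.607 of its range, with 5491 on replicate 5 against 7249 to 8675, and Cps1 one of 0.588, with 22747 on replicate 2 against 24067 to 25038. With deposited values neither was set apart (0.454 and 0.187), while Otc on replicate 5 (0.600) and Asl on replicate 6 (0.575) were. Cebpa had a gap of 0.75 and Hnf4a of 0.578, both low on replicate 5, and Igfbp1 of 0.658, high on replicate 6 (3297 against 363 to 773). Explanations for these gaps were not weighed.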

How the results depend on the processing

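No paired analysis was possible because the labels give a single group. Under every alternative run, limma called 0 probe sets, 0 cycle genes and 0 nitrogen genes, and 0 partner pairs passed, as in the main results. Leaving out 1 array at a time gave 0 to 1 member pairs past the threshold, 1 to 2 genes with a range over 2-fold, and 3 to 12 of the 21 most alike genes chosen again. Without replicate 5 or without replicate 6, 1 gene kept such a range, and 1 did with the filter at the 75th percentile, which removes Asl. Without both, 0 did, with quantile or deposited scaling. Of the 21 most alike genes, 6 were chosen again with deposited scaling, 6 with the stricter filter, 10 with the mean over probe sets, 9 without shared-sequence probe sets, and 0 without replicates 5 and 6 under either scaling. The SD of log2 signal of Cps1 was 0.046 with quantile and 0.102 with deposited scaling, and 0.022 without replicate 2. Other moves of over 1.5 times by 1 array were those of Slc25a15 (0.21 to 0.10) and Otc (0.23 to 0.15) without replicate 5, and of Asl (0.59 to 0.36) without replicate 6. The combination of deposited scaling with arrays left out, the repeats for the most alike genes, and the list ranges and ratios without replicates 5 and 6 were added after seeing the data.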

Other observations

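Genes that use the intermediates of the cycle elsewhere were measured too. Of 12 listed, 10 were measured and 7 kept, with 0 past limma's test adjusted or at an unadjusted p of 0.05 (0.0% and 5.67% of all). The creatine synthesis enzymes Gatm and Gamt had the highest variance ratios (2.53 and 1.77), which were -0.29 and 1.20 without replicates 5 and 6. Gatm, which uses arginine, ran from 255 on replicate 6 to 1231 on replicate 5, and Gamt from 2279 on replicate 6 to 5283 on replicate 3. The brightest were Gamt (4363 ± 1015) and the pyrimidine enzyme Dhodh (1284 ± 165). Cad, Nos2, Nos3 and the second arginase Arg2 were below the filter, and the aspartate aminotransferase Got1 was listed at the floor on all 8 arrays.

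Of 14 genes known for a pericentral or periportal place in the lobule, 9 were kept, and by limma's test 0 passed adjusted; at an unadjusted p of 0.05, 2, Cyp2e1 and Cdh1, were less variable than their level (5.3% of all) and 1 was more variable (5.67% of all). The last was the periportal cytochrome Cyp2f2, at 1572 on replicate 5 and up to 6462 on replicate 7. Without replicates 5 and 6 it passed unadjusted again, with Oat, and 0 genes passed on the less variable side (6.15% and 5.12% of all). The pericentral cytochrome Cyp2e1 had a 1.15-fold range (26082 ± 1142) and Cyp1a2 was 11222 ± 2161. Periportal histidase (Hal) was highest on replicate 5, at 5329.9, so periportal genes lay at both ends there, as the cycle genes did.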
